A study of Oryza sativa Indica Group with 12 samples.

Results

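Calmodulin-like proteins (CML) and calcium-dependent protein kinases (CDPK, gene names CPK) were followed across the 12 rice seedling arrays. A gene was taken as a member when its RefSeq symbol or a synonym was CML, CPK, CDPK or CPDK followed by a number. The rule gave 45 of the 17905 genes that have a probe set of their own in the array's annotation: 23 CML genes, 20 CPK genes and 2 genes with the synonyms CPDK1 and CPDK2. The last pair does not belong to the calcium kinases. RefSeq lists PPDK1 and PPDKB beside CPDK1, and PPDK2 beside CPDK2, which are names of pyruvate, orthophosphate dikinase, a metabolic enzyme that interconverts pyruvate and phosphoenolpyruvate. Both are counted among the 45, and in every share given over the 45, because the rule takes them. Their values are given below under the names CPDK1 and CPDK2, or together as the PPDK genes. A further 7 genes with such names (CPK11, CPK14, CPK25, CPK28, CML2, CML21 and CML22) had no probe set of their own here and were not analysed. The CPK numbers follow the current series of names, since older synonyms overlap: CDPK1, for example, is attached to CPK4, CPK7 and CPK23.

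Calcium ions act as a second messenger in plant cells, and a stimulus such as cold, salt, drought or a change of nutrient supply is followed by a change in cytosolic calcium. Calmodulin-like proteins are built from EF-hands, the helix-loop-helix units that bind calcium, and have no catalytic part, so they act by binding other proteins. Calcium-dependent protein kinases carry EF-hands and a kinase domain in the same polypeptide and phosphorylate targets that include ion channels, NADPH oxidases and transcription factors. Another family of sensors, the calcineurin B-like proteins (CBL) with their kinases (CIPK), is the route best known to regulate potassium uptake through the AKT1 channel.

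The seedlings were of the indica cultivar IR64, grown in hydroponic solution, and RNA came from whole seedlings without the seed, so that root and shoot are mixed. After 5 days of normal growth seedlings were sampled (0h) or moved to medium with 0.409 mM K2SO4 for 5 days (KP) or to medium without potassium, 0 mM, for 5 days (KM), and KM plants were then given 0.409 mM K2SO4 for 6 h (KR). Each group has 3 biological replicates. The treatment entry of the 0h samples gives potassium-deficient medium, against their titles and source names, which were followed. How many seedlings entered an array and the hour of harvest are not given in the sources used here, so 6 h of the day and 6 h of resupply cannot be told apart where KR is compared with KM or KP. Array medians were 2.70 to 2.74 on the log2 scale in 0h, KP and KM and 2.79 to 2.83 in KR. The mean log2 of 3 shoot markers (CAB2R, RCA and RBCS) was highest on the KP arrays, at 13.73 to 13.88, and ran from 13.18 (a KM array) to 13.63 (a KR array) on the others. That of 6 root markers (LSI1, LSI2, NAAT1, HAK1, AMT1-2 and NRT2.3) was 5.38 to 5.92 on the 0h arrays and 7.73 to 8.33 elsewhere, and NRT2.3 stayed near the array medians in all 4 groups. In whole seedlings fewer cells of a type and less RNA per cell cannot be told apart.

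Most members gave a signal well above the array medians. In 37 of the 45 at least 1 group mean reached a log2 value of 4. The other 8 (CPK2, CPK6, CPK22, CPK29, CML17, CML24, CML28 and CML32) stayed below it in every group, with highest group means of 2.28 to 3.81. The signal of a probe set also depends on its probes, so the levels of different genes are not ranked. Some probe sets are of a type that can also bind related transcripts, namely those of CPK5, CPK12, CPK18, CML5 and CML13 and that of CPDK2.

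**Figure D1:**
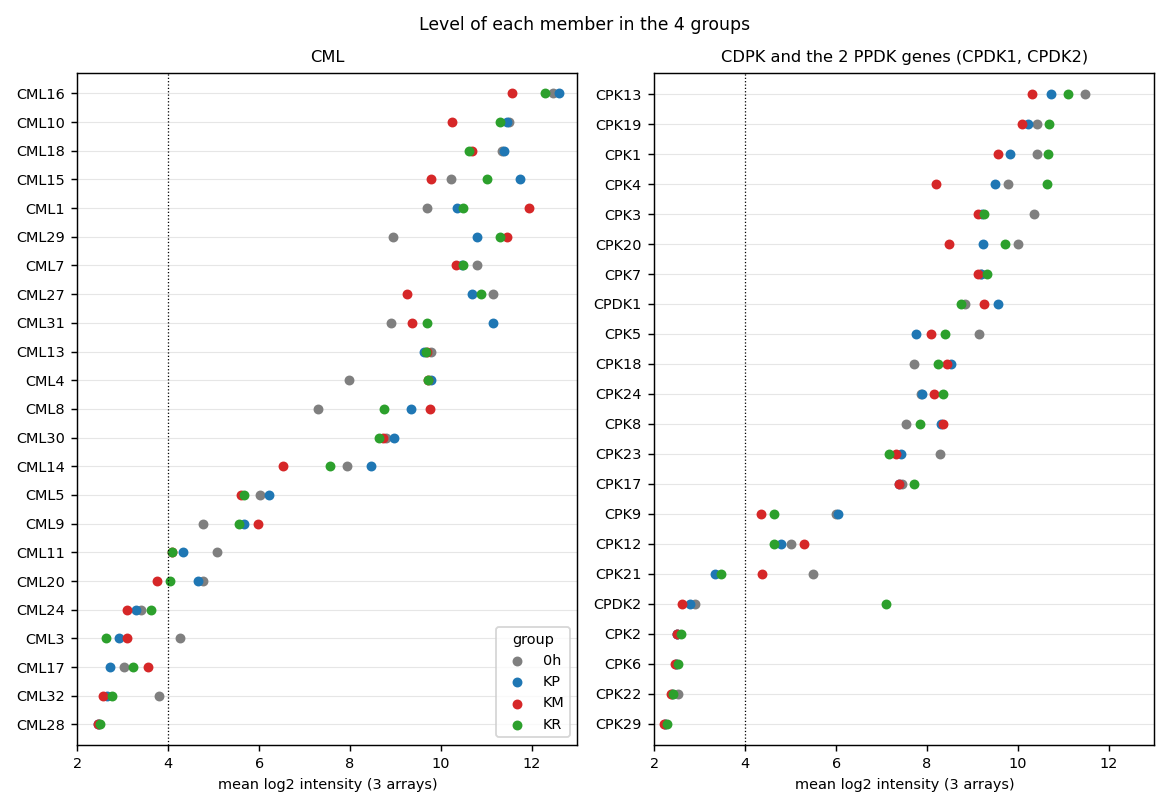
Mean log2 intensity of each member (x axis, mean of 3 arrays) in 0h, KP, KM and KR, with CML genes on the left and CPK genes and both PPDK genes on the right, sorted by the mean over 12 arrays, which does not rank abundance. The dotted line marks a log2 value of 4; KM (red) lies apart to the left for CML10, CML27, CML14 and CPK4 and to the right for CML1, and KR (green) stands alone for CPDK2.

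The first comparison, KM against KP, asks how 5 days without potassium change these genes. Of 23 CML genes 6 were lower in KM, 1 was higher and 16 were not called. Of 20 CPK genes 2 were lower and 18 were not called, and neither PPDK gene was called. A gene was called at an adjusted p under 0.05 by limma over all 57258 probe sets together with a change of at least 2-fold. Over the 45 members 9 were called, which is 20%, while the share over all probe sets was 2.54%, with 0.954% higher and 1.59% lower. Most called probe sets were not near background. Among the 22198 probe sets with a group mean of at least 4 the shares were 6.38% in all, 2.34% higher and 4.04% lower. Of the 3 shoot markers RCA was called lower (log2 change -1.21 ± 0.11, adjusted p = 0.000285), CAB2R read lower by less than 2-fold (-0.76 ± 0.03, adjusted p = 3.35e-06) and RBCS overlapped between the groups (0.16 ± 0.08, adjusted p = 0.385). None of the 6 root markers was called, and 2 read higher and 4 lower. The KM and KP arrays did not overlap for 3 of them. LSI2 (-0.96 ± 0.35, adjusted p = 0.144) and NAAT1 (-0.50 ± 0.40, adjusted p = 0.72) lay lower in KM. HAK1 lay higher (0.74 ± 0.32, adjusted p = 0.246). Whether the share of root and shoot tissue differed, and its part in the members' values, was not tested. The median log2 change was -0.21 over CML genes, -0.05 over CPK genes and -0.0008 over all probe sets.

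**Figure D2:**
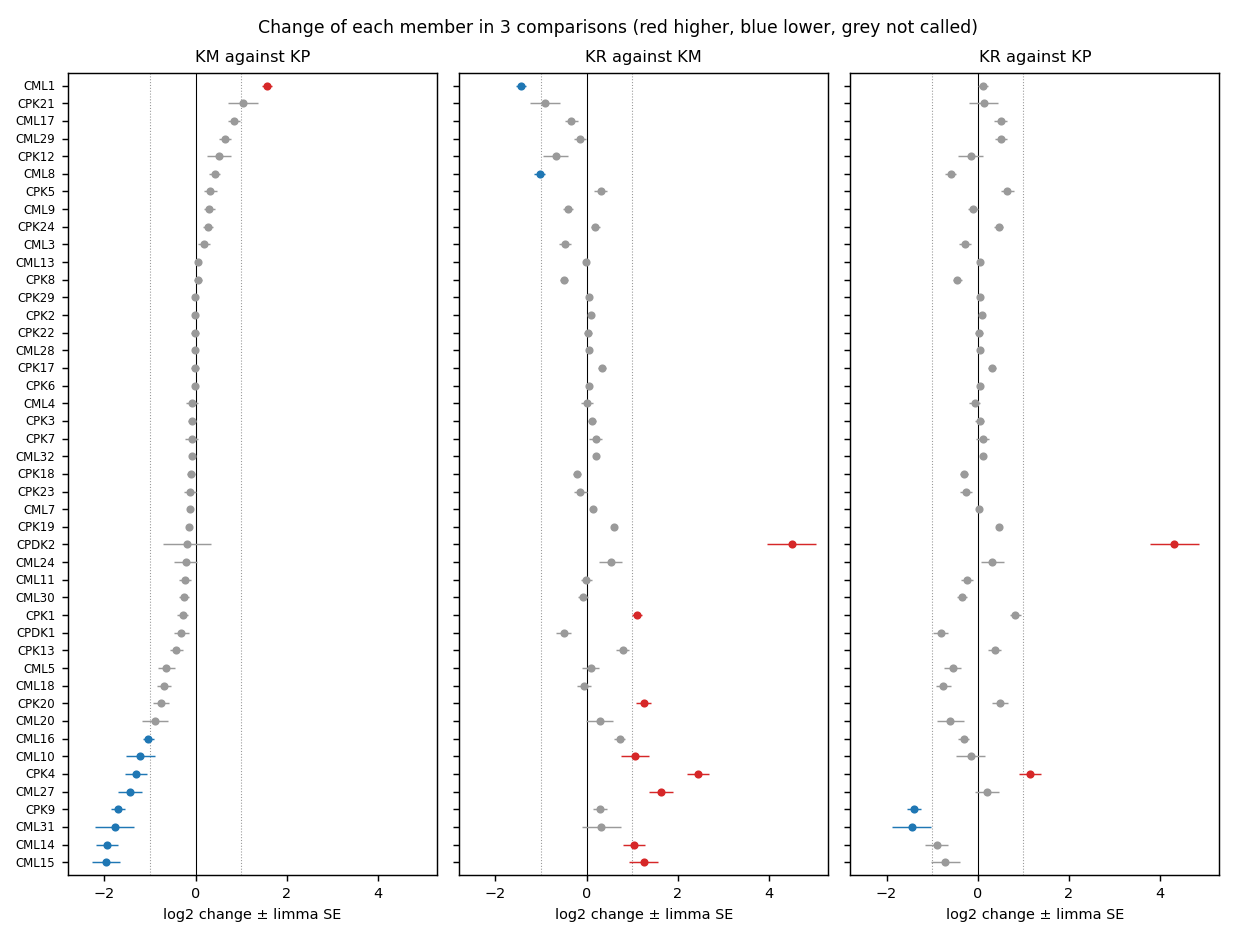
Log2 change of each of the 45 members (points, with limma's standard error as the bar) in the 3 comparisons among KP, KM and KR, sorted by KM against KP, with dotted lines at a 2-fold change. Called members are red (higher) or blue (lower): 9 in the left panel, 10 in the middle and 4 on the right, and CPDK2 lies far to the right in both KR panels. The left and middle panels share the KM arrays, the middle and right panels the KR arrays, and the left and right panels the KP arrays.

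CML15 had the largest fall among the called members. Its log2 intensities were 12.14, 11.91 and 11.14 in KP and 9.16, 10.13 and 10.03 in KM, a log2 change of -1.96 ± 0.31 (limma standard error, as for all changes below, adjusted p = 0.00433), or 3.88-fold lower. All 3 KM arrays lay below all 3 KP arrays. CML14 read 8.68, 8.58 and 8.14 in KP and 6.23, 6.86 and 6.49 in KM (log2 change -1.94 ± 0.25, adjusted p = 0.00137). The groups were again fully apart, and the 3 KM values were below those of the 0h arrays, at 7.68 to 8.14. CML31 read 11.63, 11.29 and 10.50 in KP and 8.43, 9.80 and 9.87 in KM, with a wider error (-1.77 ± 0.43, adjusted p = 0.0301).

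CML27 read 10.74, 10.94 and 10.36 in KP and 9.05, 9.47 and 9.22 in KM (log2 change -1.44 ± 0.26, adjusted p = 0.00796). A second, much dimmer probe set of CML27 had group means of 3.88 in KP and 3.30 in KM and was not called (log2 change -0.58). CML10 read 11.62, 11.69 and 11.07 in KP and 9.78, 10.53 and 10.43 in KM (-1.21 ± 0.31, adjusted p = 0.0398). Its second probe set lay at background in all groups, with means of 2.66 to 2.79. CML16 read 12.74, 12.65 and 12.39 in KP and 11.33, 11.61 and 11.74 in KM, and its change of -1.03 ± 0.12 was close to the 2-fold threshold (adjusted p = 0.000983). For each of these genes the KP and KM arrays did not overlap. This held for 18 of the 23 CML genes, 7 of the 20 CPK genes and 25 of the 45 members. Over all probe sets it held for 23.6%. That share also counts probe sets below a group mean of 4, and the share of those above it was not computed.

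CML1, also known as OsCaM61, was the only member called higher in KM. It is a calmodulin-like protein with a long C-terminal tail that ends in a site for prenylation, a lipid anchor. Its log2 intensities were 10.42, 10.24 and 10.41 in KP and 11.99, 11.98 and 11.81 in KM, 2.96-fold higher (log2 change 1.57 ± 0.11, adjusted p = 5.68e-05). The 0h arrays were lower still, at 9.54 to 9.81. CML29 (log2 change 0.66 ± 0.13, adjusted p = 0.014) also had KM arrays above the KP arrays and stayed under 2-fold. The same held for CML17 (0.84 ± 0.14, adjusted p = 0.00519), 1 of the members below a mean of 4 in every group. It held by smaller amounts for CML8, CML9 and CML13.

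Of the kinases, CPK9 and CPK4 were lower in KM. CPK9, which has been linked to drought tolerance in rice, read 6.26, 5.73 and 6.13 in KP and 4.53, 4.38 and 4.13 in KM (log2 change -1.69 ± 0.15, adjusted p = 0.00023). The 0h arrays, at 5.98 to 6.04, lay within the range of the KP arrays. CPK4, linked to salt and drought tolerance in rice, read 9.85, 9.85 and 8.80 in KP and 8.11, 8.17 and 8.30 in KM (-1.30 ± 0.25, adjusted p = 0.00955). KP replicate 3 was well below the other KP arrays and still above all KM arrays. CPK20 read lower by a smaller amount (-0.76 ± 0.17, adjusted p = 0.0212), under 2-fold and therefore not called. CPK21, linked to salt tolerance in rice, had KM arrays of 4.33 to 4.42 above KP arrays of 3.12 to 3.73, near background, and was not called (1.05 ± 0.32, adjusted p = 0.0826).

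**Figure D3:**
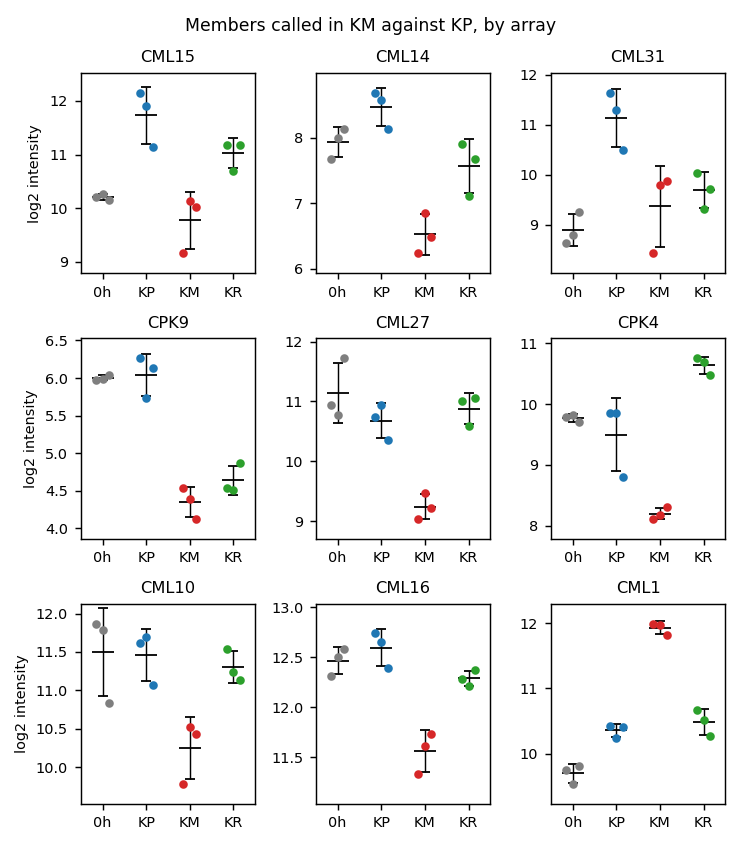
Log2 intensity (y axis, a scale of its own in each panel) of the 9 members called in KM against KP on each of the 12 arrays, 3 per group in replicate order, with bars for the group mean and SD. In all 9 panels the 3 KM points lie apart from the 3 KP points, below them in 8 and above them in CML1, and in CPK4 the KR points lie above those of every other group.

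The 8 genes that were lower in KM tended to deviate together on the same array of a group. KP replicate 3 was the lowest KP array in 7 of the 8, by a median of 0.36 below the group mean, and KM replicate 1 was the lowest KM array in 7 of the 8, by a median of 0.26. Over the 37 members with a group mean of at least 4, these arrays were lowest in 20 and in 15. Without KP replicate 3 there were 10 members called, and without KM replicate 1 there were 6. Over the 6 fits that each left out a replicate, the calls of CML1, CML14, CML15, CML27, CPK4 and CPK9 held throughout, while CML10, CML16 and CML31 lost theirs without KM replicate 1 and without KP replicate 1. CML10 lost it as well without KP replicate 2 or KM replicate 2 or 3, and CML31 without KP replicate 2. By the unpaired t-test of the study's methods only CML1, CML14 and CPK9 were called.

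The second comparison, KR against KM, asks what 6 h of resupply did to deprived seedlings. Of the calcium kinases CPK4, CPK20 and CPK1 were higher, none was lower and 17 were not called. Among CML genes 4 were higher, 2 were lower and 17 were not called. With CPDK2, 8 of the 45 members were higher and 2 lower, and the called share was 22.2%. Of all probe sets 3.81% were called, 1.75% higher and 2.06% lower. Of those with a group mean of at least 4 it was 9.63%, with 4.48% higher and 5.15% lower. The KR and KM arrays did not overlap for 30 of the 45 members and for 64.4% of all probe sets, so separation alone sets no member apart here. The median log2 change of all probe sets was 0.04, with the KR arrays the brighter ones. With all arrays shifted to equal medians the numbers were 6 higher and 3 lower. None of the 3 shoot markers and 6 root markers was called. The shoot marker CAB2R (log2 change 0.83 ± 0.03, adjusted p = 2.05e-06) and the root marker LSI1 (0.99 ± 0.19, adjusted p = 0.0035) read higher by less than 2-fold. The root marker NAAT1 read lower (-0.95 ± 0.40, adjusted p = 0.0793). Of the 6 root markers 3 read higher and 3 lower. The part of tissue in the members' values was not tested.

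CPK4 rose most of the calcium sensors. It went from 8.11, 8.17 and 8.30 in KM to 10.75, 10.69 and 10.48 in KR, a 5.45-fold rise (log2 change 2.45 ± 0.25, adjusted p = 0.000221). All 3 KR arrays also lay above every KP array and above the 0h arrays, at 9.70 to 9.83. CPK20 read 8.38, 8.59 and 8.44 in KM and 9.89, 9.63 and 9.65 in KR (1.25 ± 0.17, adjusted p = 0.000767). CPK1 read 9.53, 9.57 and 9.55 in KM and 10.61, 10.58 and 10.78 in KR (1.11 ± 0.12, adjusted p = 0.00027). In both genes the KR arrays stood above all KP arrays as well, while those of CPK20 were on average below 0h, at 9.72 against 10.01. CPK13, linked to cold, salt and drought tolerance in rice, and CPK19 read higher in KR by less than 2-fold and were not called (0.79 ± 0.14, adjusted p = 0.00244, and 0.59 ± 0.07, adjusted p = 0.000329).

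Of the 6 CML genes that were lower in KM, CML27, CML15, CML10 and CML14 were called higher in KR. CML27 read 10.59 to 11.06 in KR, against 9.05 to 9.47 in KM (log2 change 1.64 ± 0.26, adjusted p = 0.00149). CML15 read 11.19, 10.70 and 11.18 in KR (1.25 ± 0.31, adjusted p = 0.0117), and CML10 read 11.54, 11.24 and 11.14 (1.06 ± 0.31, adjusted p = 0.0235). CML14 read 7.91, 7.11 and 7.67 in KR (1.04 ± 0.25, adjusted p = 0.00952). The KR arrays of these 4 genes were all above the KM arrays. By the methods' t-test CML15, CML10 and CML14 were not called. They also lost the call without KM replicate 1, at 0.94, 0.83 and 0.89 on the log2 scale. CML10 and CML14 lost it without KR replicate 1 too, CML10 without KR replicate 2 and CML14 without KR replicate 3.

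The other genes that were lower in KM were not called here. CML16 read 12.28, 12.22 and 12.37 in KR, above all KM arrays and under 2-fold (log2 change 0.73 ± 0.12, adjusted p = 0.00205). CML31 stood at 10.03, 9.32 and 9.72 in KR and overlapped KM (0.32 ± 0.43, adjusted p = 0.563), and the sign of its difference turned without KM replicate 1 (-0.15). CPK9 stood at 4.54, 4.51 and 4.86 in KR and also overlapped KM, and its difference of 1.22-fold was not called (adjusted p = 0.151). KM against KP and KR against KM share the KM arrays, so a chance deviation of those arrays enters them with opposite signs.

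CML1 came down again on resupply, from 11.99, 11.98 and 11.81 in KM to 10.67, 10.51 and 10.27 in KR (log2 change -1.44 ± 0.11, adjusted p = 6.98e-05). CML8 fell from 9.62, 9.88 and 9.79 in KM to 8.59, 8.95 and 8.69 in KR. Its change of -1.02 ± 0.12 (adjusted p = 0.000454) lay at the 2-fold threshold, and the call was lost without KM replicate 2 and without KR replicate 1 or 3. The KP arrays of CML8, at 9.28 to 9.38, lay between those of KM and KR.

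**Figure D4:**
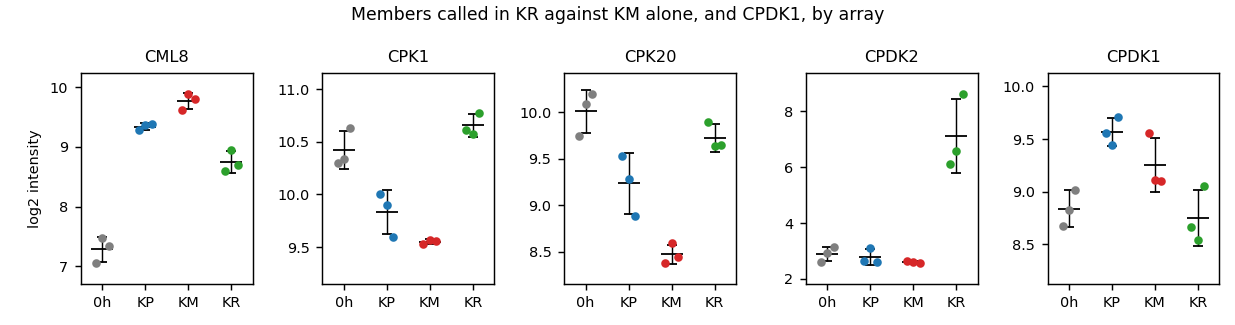
Log2 intensity (y axis, a scale of its own in each panel) on each of the 12 arrays for the 4 members called in KR against KM and not in KM against KP, and for CPDK1, with bars for the group mean and SD. CPK1 and CPK20 have KR above KP and KM, CML8 has KR below both, and CPDK2 leaves the background only in KR.

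The third comparison, KR against KP, asks where resupplied seedlings differed from those never deprived. Of the 45 members 4 were called (8.89%), against 3.20% of all probe sets (1.15% higher and 2.06% lower). Among those with a group mean of at least 4 it was 8.12% (2.92% higher and 5.20% lower). The members' share also counts members below that level. Over the 43 CML and CPK genes, without CPDK1 and CPDK2, the called share was 6.98%. Groups did not overlap for 28 of the 45 members and 62.4% of all probe sets. CPK4 stood above KP, at 10.48 to 10.75 against 8.80 to 9.85 (log2 change 1.14 ± 0.25, adjusted p = 0.00618). Without KP replicate 3, its lowest KP array, the change was 0.79 and under 2-fold. The call of CPK4 was also lost by the methods' t-test and by limma on the KR and KP arrays alone. CPK9 stood below KP (-1.40 ± 0.15, adjusted p = 0.000326), as did CML31 (-1.45 ± 0.43, adjusted p = 0.0239). KM against KP and KR against KP share the KP arrays, so a chance deviation of those arrays enters both with the same sign. The call of CML31 was lost without KP replicate 1 or 2 or KR replicate 2. The remaining call was CPDK2. CML1, with group means of 10.36 in KP and 10.48 in KR, was not called, and neither were CML10, CML16 and CML27. CML15 was not called either (log2 change -0.71 ± 0.31, adjusted p = 0.092), but it was called lower without KP replicate 3 (-1.01, adjusted p = 0.0301). CML14 stood below KP by less than 2-fold (-0.90 ± 0.25, adjusted p = 0.0173), and it was called lower without KP replicate 3 or KR replicate 1 and with equal array medians. Tissue markers differed in the same comparison: the shoot marker RCA (-1.04 ± 0.11, adjusted p = 0.000326) and the root marker NAAT1 (-1.46 ± 0.40, adjusted p = 0.0179) were called lower. The other shoot markers and the other 5 root markers were not called, and the part of tissue in the members' values was not tested.

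CPDK2 showed the largest change of the 45 members. It read 6.12, 6.58 and 8.60 in KR. The other 9 arrays lay near the array medians, between 2.58 (KM) and 3.14 (0h). The log2 change was 4.50 ± 0.53 against KM (adjusted p = 0.000456) and 4.31 ± 0.53 against KP (adjusted p = 0.000518). Since the other groups lie at background, the size of the change is limited by the background, and KR replicate 3 stood well above the other KR arrays. CPDK1, the gene of the PPDKB enzyme, read 9.55, 9.44 and 9.71 in KP, 9.55, 9.11 and 9.10 in KM and 8.66, 8.54 and 9.05 in KR. Its KR arrays lay below all KP arrays, by less than 2-fold (-0.82 ± 0.17, adjusted p = 0.00508).

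The fourth comparison, KP against 0h, covers 5 further days of growth with potassium. Here 5 members were higher, all of them CML genes, and 5 were lower, of which CPK21, CPK5 and CPK3 are kinases. The called share was 22.2%, against 11.6% of all probe sets (5.87% higher and 5.71% lower). Of those with a group mean of at least 4 it was 29.2% (14.9% higher and 14.3% lower). The 22.2% also counts members below that level. Groups did not overlap for 25 of the 45 members and 37.1% of all probe sets. Root markers rose in the same comparison, 4 of 6 being called higher and none lower, and their part in these changes was not tested.

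CML8 rose most steadily, from 7.06, 7.47 and 7.33 in 0h to 9.28, 9.36 and 9.38 in KP (log2 change 2.05 ± 0.12, adjusted p = 2.13e-06). CML31 rose from 8.63, 8.80 and 9.25 to 11.63, 11.29 and 10.50 (2.25 ± 0.43, adjusted p = 0.00306), and CML15 from 10.20, 10.27 and 10.15 to 12.14, 11.91 and 11.14 (1.52 ± 0.31, adjusted p = 0.00452). These were the 2 members called both here and in KM against KP, and both comparisons use the same KP arrays, so a chance deviation of those arrays enters them with opposite signs. The means of CML15 were 10.21 (0h), 11.73 (KP) and 9.77 (KM), and those of CML31 were 8.89, 11.14 and 9.37. CML29 rose by 1.85 ± 0.13 (adjusted p = 6.97e-06). CML4, linked to drought tolerance in rice, rose by 1.81 ± 0.12 (adjusted p = 4.67e-06), and its other probe sets went from 7.12 to 9.63 and from 2.89 to 4.16. The 3 CML4 probe sets differed after that. The one used here had means of 9.79 (KP), 9.71 (KM) and 9.72 (KR), while another went from 9.63 (KP) to 9.15 (KR) and the dimmest from 4.16 to 3.28, and none was called in the comparisons among KP, KM and KR.

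CPK21 fell from 4.95, 5.27 and 6.28 in 0h to 3.73, 3.12 and 3.14 in KP (log2 change -2.17 ± 0.32, adjusted p = 0.000661). CPK5 fell from 8.87, 9.17 and 9.42 to 7.81, 7.93 and 7.55 (-1.39 ± 0.14, adjusted p = 5.97e-05), and CPK3 from 10.42, 10.34 and 10.31 to 8.99, 9.21 and 9.42 (-1.15 ± 0.09, adjusted p = 1.48e-05). For these 3 kinases every KM and KR array also lay below the 0h arrays. CML3 and CML32 fell to near background, from 4.27 to 2.91 and from 3.81 to 2.66 in the group means. CML32 was no longer called with a floor of 8 and was left out by a filter at a group mean of 4. The CPK13 probe set used here read lower by less than 2-fold (-0.75 ± 0.14, adjusted p = 0.00262), while its second, dimmer probe set went from 5.14 to 5.97, so the direction for CPK13 is not settled.

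**Figure D5:**
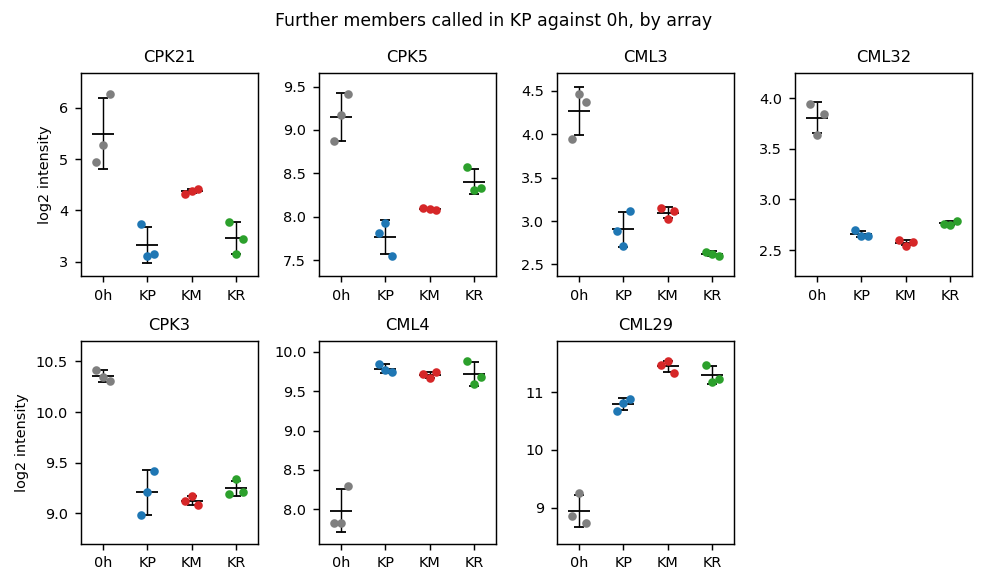
Log2 intensity (y axis, a scale of its own in each panel) on each of the 12 arrays for the 7 further members called in KP against 0h, with bars for the group mean and SD. The 3 arrays of 0h lie apart from the 3 KP arrays in each panel, above them in CPK21, CPK5, CML3, CML32 and CPK3 and below them in CML4 and CML29.

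In all, 20 members were called in at least 1 of the 4 comparisons (12 CML genes, 7 CPK genes and CPDK2) and 25 in none. The 20 are 44.4% of the members, and 14.8% of all probe sets were called in at least 1. With a group mean of at least 4 it was 51.4% of the members (19 of 37) and 37.3% of the probe sets. Of the 25, 18 had a group mean of at least 4: CPK7, CPK8, CPK12, CPK13, CPK17, CPK18, CPK19, CPK23, CPK24, CML5, CML7, CML9, CML11, CML13, CML18, CML20, CML30 and CPDK1. Their log2 changes ran from -0.88 to 0.52 in KM against KP and from -0.68 to 0.79 in KR against KM. CPK23, once described as a seed kinase acting on sucrose synthase, CPK17 and CPK24, both linked to cold tolerance in rice, and CPK18, which phosphorylates the MAP kinase MPK5, are in this set. CML18 read 11.63, 11.45 and 11.06 in KP, 10.45, 10.81 and 10.79 in KM and 10.49, 10.55 and 10.83 in KR. Its differences were under 2-fold in KM against KP (-0.70 ± 0.16, adjusted p = 0.0224) and in KR against KP (-0.76 ± 0.16, adjusted p = 0.00542).

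A further list held 47 other genes of calcium signalling: 24 CIPK kinases, 7 CBL sensors, 3 calmodulins, the calcium and calmodulin-dependent kinase CCaMK, 11 calcium channels, pumps and exchangers, and the NADPH oxidase RBOHB. In KM against KP 3 of the 47 were lower (CBL4, CIPK29 and CIPK8) and none was higher. This is 6.38%, against 2.54% of all probe sets and 6.38% of those with a group mean of at least 4. Whether this share differs from that of the members was not tested. CIPK7 was not called by its brightest probe set (log2 change 0.36 ± 0.10, adjusted p = 0.0593). The paper reports CIPK7 as lower in KM and higher on resupply, from another probe set of the gene. In KR against KM 1 was higher (CIPK29) and 3 were lower (CIPK25, CIPK5 and CIPK18). This is 8.51%, against 3.81% of all probe sets and 9.63% of those with a group mean of at least 4. The calmodulins, the closest relatives of the CML proteins, were called in none of the 4 comparisons. The group means of CAM-1 were 11.68 (KP), 11.48 (KM) and 11.65 (KR). CAM-2 read higher in KP against 0h by just under 2-fold (log2 change 0.97 ± 0.06, adjusted p = 2.1e-06). It also read higher in KR against KP (0.32 ± 0.06, adjusted p = 0.00277). RBOHB, of an enzyme family that calcium kinases phosphorylate, had group means of 9.11 (KP), 9.57 (KM) and 10.28 (KR). It was higher in KR against KP (log2 change 1.17 ± 0.12, adjusted p = 0.000257). In KR against KP 4 of the 47 were lower (CIPK25, CIPK5, CBL4 and ACA5). With RBOHB the called share was 10.6%, against 3.20% of all probe sets and 8.12% of those with a group mean of at least 4. In KP against 0h 10 of the 47 were higher and 6 lower. The share was 34%, against 11.6% of all probe sets and 29.2% of those with a group mean of at least 4.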

How the data were processed

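RNA of 12 samples (4 groups of 3 biological replicates) was hybridized to Affymetrix rice GeneChips. Scans were read with GCOS (1.2.1 in the submitters' processing notes), and the authors used ArrayAssist for GCRMA normalization. Deposited intensity values are the resulting signals on a linear scale. Groups follow titles and source names. Values were floored at 1 (0 values lay below) and put on the log2 scale. Of 57381 probe sets, 123 controls were left out.

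limma 3.58.1 (R 4.3.3) was fitted with 1 mean per group over all 12 arrays, with Benjamini-Hochberg adjustment over 57258 probe sets. A call needed an adjusted p under 0.05 and a 2-fold change. The brightest probe set over 12 arrays stood for a gene, and names came from the array annotation and RefSeq (22436 probe sets with 1 gene). Genes named with values were called members, the 3 brightest of each family and those the study names (CML1, CML14 and CPK9). A few more were chosen after their values were seen (CPDK1, CML17 and the genes of other lists). Members and lists were chosen with earlier results of these data known. The fit was tested on simulated data. Alternatives were the methods' t-test, limma on 2 groups, quantile or median scaling, a floor of 8, a filter at a group mean of 4, other fold thresholds, a replicate block, other probe sets and each replicate left out. The precision is limited by 3 arrays per group. Promoter and protein sequences were not analysed here.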

Additional observations from a re-analysis of the deposited data

How the results depend on the processing

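Counts of called members depended most on the test and the fold threshold. In KM against KP the methods' t-test called 3 of the 9 members. In KR against KM it called 7 of the 10 (without CML10, CML14 and CML15). For KR against KP it called 2 of the 4 (without CPK4 and CML31). With no fold threshold KR against KM had 23 members called, and both KR against KP and KP against 0h had 22. At 1.5-fold KR against KP had 10 and KP against 0h had 19. Over all probe sets the methods' t-test called 722 in KM against KP, where limma called 1457. A 1.5-fold threshold gave 3364 in place of 1457 in KM against KP, 5066 in place of 2183 (KR against KM), 4694 in place of 1834 (KR against KP) and 11367 in place of 6632 (KP against 0h), and no fold threshold gave 5979, 26105, 25253 and 15284. With equal array medians KR against KP had 499 probe sets higher and 1446 lower, in place of 657 and 1177. Leaving out each replicate gave 6 to 10 members in KM against KP, 7 to 10 in KR against KM, 3 to 5 in KR against KP and 10 to 11 in KP against 0h. Limma on the KM and KP arrays alone called 6 members, without CPK4, CML10, CML15 and CML31 and with CPK21. With other probe sets CML10 and CML27 lost their calls, and the uncalled fall of CPK13 from 0h to KP turned to 0.84. The uncalled rise of CML31 in KR against KM turned to -0.15 without KM replicate 1, and ran up to 0.57 over the fits that left out a replicate. Of 33 called changes, 19 kept sign and call under every alternative run, 14 lost the call under at least 1 and 0 turned.

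Arrays with the same replicate number did not deviate together over all probe sets (r of -0.11 to 0.16 in 18 pairs), so the numbers were not taken as pairs. With a replicate block 8 members were called in KM against KP, without CML31, and 10, 4 and 10 in the other comparisons. The 3 arrays per group and signals near background limit what can be seen for the 8 dim members.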
